A study of Mus musculus with 8 samples.

Results

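Foxp3 binding sites were examined at 10 genes for the mediators and tissue receptors of effector regulatory T (Treg) cells, namely Il10, Areg, Gzmb, Ebi3, Fgl2, Il1rl1, Ccr8, Cxcr3, Ccr4 and Cd44. Each site of the deposited tables (mm10) was given the protein-coding RefSeq gene whose body, widened by 5 kb, held the site centre, or else the nearest gene end within 100 kb, and all sites given to the 10 genes were kept. This gave 12 of the 5521 sites, and they belonged to 5 of the 10 genes: 5 sites at Cd44, 3 at Ccr8, 2 at Gzmb and 1 each at Il10 and Il1rl1. No listed site was given to Areg, Ebi3, Fgl2, Cxcr3 or Ccr4. The signal came from CUT&Tag, in which an antibody brings a transposase to chromatin and the DNA beside the bound protein is cut out and sequenced. Spleens and lymph nodes of C57BL6/J mice were the source of the Treg cells, which were sorted as CD4+hCD2+GFP- and used fresh. Mice of all 4 groups carried a Foxp3-IRES-GFP allele. The other allele was Foxp3WT-IRES-hCD2 in the WT groups and Foxp3R397W-IRES-hCD2 in the R397W groups, R397W being a missense change in the forkhead domain. Each genotype had 2 libraries made with anti-Foxp3 and 2 made with normal rabbit IgG as background. The labels used here give no age and do not say whether animals were pooled, nor whether libraries numbered 1 and 2 came from separate mice, so p-values measure only the spread between these libraries, which may be technical.

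Effector Treg cells are the activated Treg cells that leave lymphoid organs for inflamed and non-lymphoid tissue. There they act through secreted and surface products: the cytokine IL-10 and the Ebi3-containing cytokines restrain other immune cells, granzyme B kills target cells, Fgl2 is a secreted fibrinogen-like protein, and amphiregulin, encoded by Areg, promotes tissue repair. Il1rl1 encodes ST2, the receptor for the alarmin IL-33, while Ccr8, Ccr4 and Cxcr3 encode chemokine receptors that guide entry into tissue, and Cd44 encodes a hyaluronan receptor that rises on activated T cells.

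The authors sorted the sites into common, cTreg-specific and eTreg-specific classes, where eTreg stands for effector Treg. Of the 12 sites, 7 were common, 1 was cTreg-specific and 4 were eTreg-specific. The corresponding shares of all sites were 69.7%, 13.2% and 17.2%. The 4 eTreg-specific sites belonged to Il10, Il1rl1, Ccr8 and Cd44, with 1 each. The cTreg-specific site belonged to Gzmb. Of the 12 sites, 5 lay inside a gene body, against 63.5% of all sites, and 4 of these 5 were in Cd44, whose body spans 90529 bp in the RefSeq table. Every one of the 12 was 400 bp wide. A site was thus given to 5 of the 10 genes and to 12.6% of the 21896 protein-coding genes of the table.

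**Figure D1:**
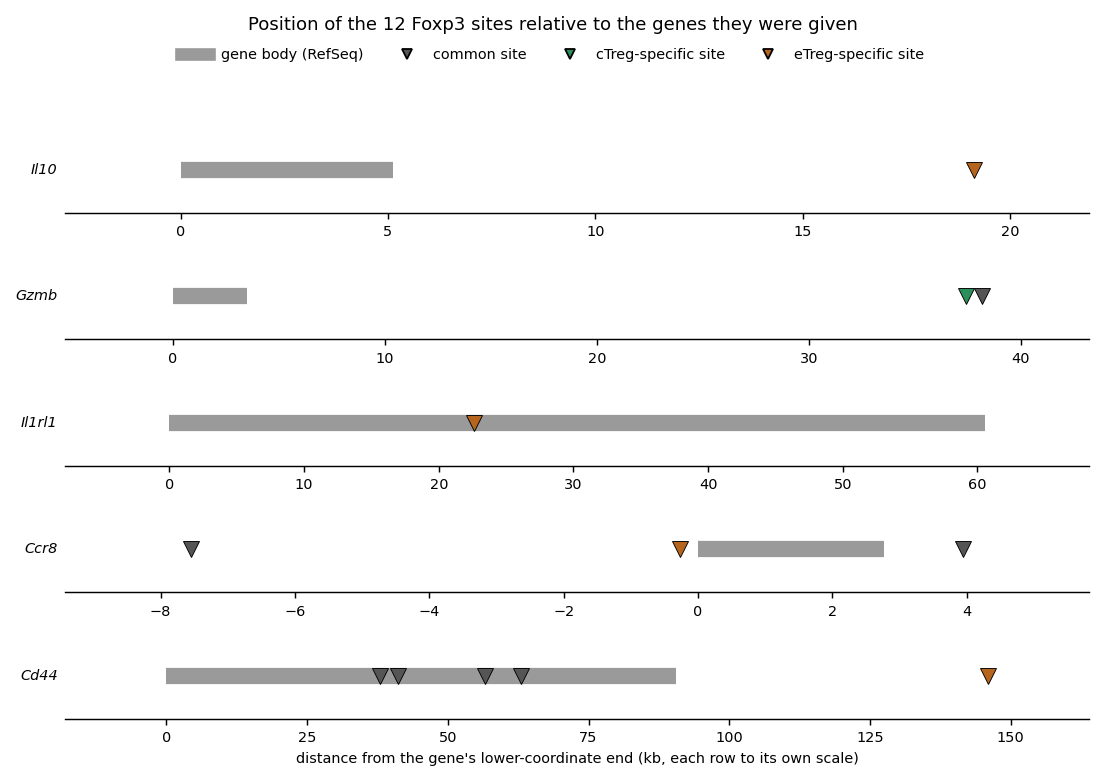
Positions of the 12 sites (triangles, coloured by class) along the 5 genes that had one, with the RefSeq gene body as a grey bar and distance in kb from its lower-coordinate end on the x axis, each row to its own scale. The 4 common Cd44 sites fall inside the gene, the Ccr8 sites flank a short gene, and the Il10 and Gzmb sites lie 14000, 33893 and 34653 bp outside theirs.

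Reads at all listed sites ranged from 111274 to 394196 per library, and reads at the 12 sites from 151 to 593. These are sums over listed sites, not library depths. In each group the library numbered 2 had reads at fewer of the 12 sites than the library numbered 1. WT Foxp3 replicate 1, WT IgG replicate 1 and R397W IgG replicate 1 had reads at all 12 sites, and R397W Foxp3 replicate 1 at 10. By contrast WT Foxp3 replicate 2 had reads at 8 sites, R397W Foxp3 replicate 2 at 3, R397W IgG replicate 2 at 4 and WT IgG replicate 2 at 1. Over all 5521 sites, 44.4%, 55.5%, 60.1% and 66.8% were without a read in these 4 libraries. A single site supplied 100% of the reads at the 12 sites in WT IgG replicate 2, 64.3% in R397W Foxp3 replicate 2 and 45.6% in R397W IgG replicate 2. Only 1 of the 12 sites, a common site inside Cd44, had reads in all 8 libraries, against 17% of all sites. The values below are normalised signal, that is, reads divided by a library factor that the authors set separately for each class file, so signals of sites from different classes are not on a shared scale and reads are used to compare them. The authors call the signal normalised to a spike-in, and the sources used here do not show how the factors were derived, so comparisons of signal between libraries rest on them. Paired values give replicate 1 first and replicate 2 second.

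**Figure D2:**
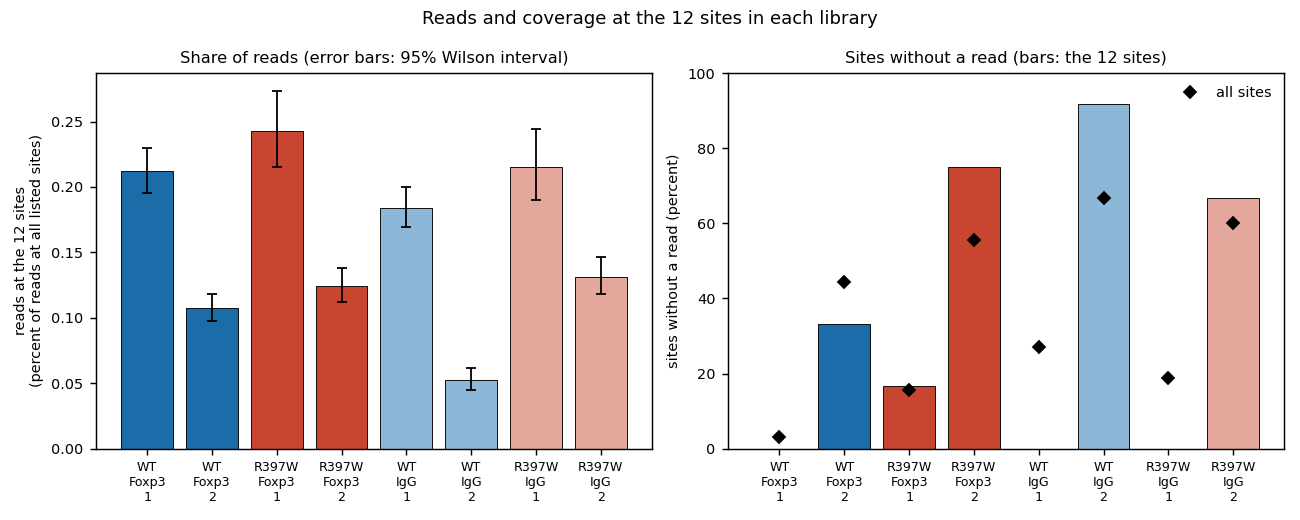
Left, reads at the 12 sites as a percentage of reads at all listed sites in each library, with 95% Wilson intervals as error bars. Right, the percentage of sites without a read among the 12 sites (bars) and among all 5521 (diamonds), where the libraries numbered 2 stand above those numbered 1 of the same group.

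At Il10, which encodes the anti-inflammatory cytokine IL-10, the only site was eTreg-specific and lay 14000 bp beyond the higher-coordinate end of the gene (chr1:131038770-131039170). Its centre was 14730 bp from Mapkapk2, so the next gene was almost as near. The signal was 27.7 and 30.7 in the WT Foxp3 pair of libraries and 25.1 and 0 in the R397W Foxp3 pair, beside IgG values of 36.5 and 0 for WT and 49.6 and 0 for R397W. Both WT Foxp3 libraries lay above both R397W Foxp3 libraries, but in replicate 1 the Foxp3 value was below IgG in either genotype. The site ranked 320 of 947 eTreg-specific sites by mean WT Foxp3 signal and 287 by mean WT IgG signal.

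Gzmb, which encodes the granule protease granzyme B, had a pair of sites about 34 kb upstream whose centres were 760 bp apart. The nearer, 33893 bp from the gene (chr14:56296027-56296427), was cTreg-specific, and the farther, 34653 bp away (chr14:56296787-56297187), was common. The next gene, Gzmc, was 54580 bp from the nearer site. The nearer site had a signal of 30.3 and 8.25 in the WT Foxp3 pair of libraries and 60.7 and 0 in the R397W Foxp3 pair, beside IgG values of 13.7 and 0 for WT and 25.9 and 0 for R397W. At the farther site the signal was 95.8 and 12.1 in the WT Foxp3 pair of libraries and 89.3 and 0 in the R397W Foxp3 pair, beside IgG values of 34.4 and 0 for WT and 97.3 and 98.6 for R397W. R397W IgG thus exceeded R397W Foxp3 in both replicates at the farther site, and the genotypes overlapped at both sites. In reads, which share a scale within a library, the farther site had 79 against 36 at the nearer site in WT Foxp3 replicate 1 and 26 against 16 in replicate 2. In R397W Foxp3 replicate 1 the reads were 34 and 36.

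Il1rl1, the ST2 gene, had a single weak eTreg-specific site (chr1:40427260-40427660). It lay inside the RefSeq gene body and 2110 bp upstream of the nearest of the start sites that the promoter table lists. The signal was 8.66 and 0 in the WT Foxp3 pair and 0 in both R397W Foxp3 libraries, beside IgG values of 9.43 and 0 for WT and 27.3 and 0 for R397W. Only the 3 libraries with a signal held any of its 36 reads, and the highest value was in an IgG library. If reads were independent, a count of 0 would allow up to 3 reads, a signal of 6.28 in R397W Foxp3 replicate 1 and 2.34 in replicate 2. Amplified reads are not independent, and sites with reads held a median of 77 in R397W Foxp3 replicate 2. A 0 may therefore allow more, and no fold is given. The site ranked 846 of 947 in its class by mean WT Foxp3 signal.

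Ccr8, which encodes a chemokine receptor of tissue Treg cells, was the only one of the 9 genes with an entry in the promoter table that had a site over a promoter window. Over all genes, 535 of 5521 sites (9.69%) overlapped such a window, which runs from 250 bases before to 50 after a RefSeq start. The eTreg-specific site (chr9:120091669-120092069) was centred 264 bp upstream of the Ccr8 start and covered 187 bases of the window. The window is shown because it is the one promoter sequence among these genes that a listed site touches, with the bases inside the site in capitals (RefSeq, GRCm38.p6, plus strand, chr9:120091883-120092182).
Ccr8 promoter: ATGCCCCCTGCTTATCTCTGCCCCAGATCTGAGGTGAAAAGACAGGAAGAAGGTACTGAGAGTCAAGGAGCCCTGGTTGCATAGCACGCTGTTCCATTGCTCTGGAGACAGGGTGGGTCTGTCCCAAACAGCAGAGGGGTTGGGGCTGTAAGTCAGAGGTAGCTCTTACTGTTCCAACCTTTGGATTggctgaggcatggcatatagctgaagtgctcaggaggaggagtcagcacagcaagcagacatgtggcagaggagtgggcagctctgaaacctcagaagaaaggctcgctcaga
The window was searched on both strands for the forkhead motif GTAAACA, the AP-1 motif TGANTCA (AP-1 dimers include BATF, the factor named beside Foxp3 in the study title), the Runx motif TGTGGTT and the repeat TTTGTTTG, and none of the 4 was found in it. Of all 32851 promoter windows, 3.65%, 7.81%, 5.27% and 2.61% held them, in that order. Only the 187 bases of the site that lie in the window were searched, so the rest of the site may hold a match.

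At this Ccr8 promoter site the signal was 97.0 and 61.0 in the WT Foxp3 pair of libraries and 96.4 and 0 in the R397W Foxp3 pair, beside IgG values of 93.0 and 0 for WT and 24.8 and 23.8 for R397W. The replicates numbered 1 were nearly level in WT Foxp3, R397W Foxp3 and WT IgG, and the separation of WT from R397W came from replicate 2. WT Foxp3 replicate 2 held 159 reads here, its largest count among the 12 sites, while R397W Foxp3 replicate 2 held 0. The SD between replicates was 25.4 in WT Foxp3 and, around a mean of 48.2, 68.1 in R397W Foxp3 (n = 2). The site ranked 70 of 947 in its class by mean WT Foxp3 signal.

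The other 2 Ccr8 sites were common and flanked the gene. At the site 7546 bp upstream (chr9:120084387-120084787) the signal was 101.9 and 0 in the WT Foxp3 pair of libraries and 57.8 and 0 in the R397W Foxp3 pair, beside IgG values of 43.0 and 0 for WT and 153.9 and 0 for R397W. The highest value was again an IgG library. At the site 1172 bp past the end of the gene (chr9:120095878-120096278) the signal was 3.64 and 0 in the WT Foxp3 pair of libraries and 23.6 and 145 in the R397W Foxp3 pair, beside IgG values of 24.5 and 0 for WT and 22.6 and 0 for R397W. Here both R397W Foxp3 libraries lay above both WT Foxp3 libraries, and R397W Foxp3 replicate 1 was 1.04 times its IgG. All 225 of the reads of R397W Foxp3 replicate 2 at Ccr8 came from this site. By group means the promoter site was higher in WT and the site past the end higher in R397W. R397W Foxp3 replicate 2 held 0 reads at the first and 225 at the second. At the promoter site the genotypes overlapped, so these means do not show that the sites moved differently.

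Cd44, the hyaluronan receptor gene, held 4 common sites inside its body and an eTreg-specific site 55425 bp upstream. Of the 7 common sites, the one with the highest mean WT Foxp3 signal lay 27556 bp downstream of the Cd44 start (chr2:102873909-102874309) and ranked 485 of 3847 in its class. Its signal was 196.5 and 19.1 in the WT Foxp3 pair of libraries and 212.6 and 7.09 in the R397W Foxp3 pair, beside IgG values of 20.5 and 75.1 for WT and 61.1 and 20.4 for R397W. The mean was 107.8 ± 125.4 in WT Foxp3 and 109.9 ± 145.4 in R397W Foxp3 (SD, n = 2). In replicate 1 Foxp3 exceeded IgG by 9.59-fold in WT and 3.48-fold in R397W, whereas in replicate 2 the ratios were 0.254 and 0.348. The direction against background therefore turned between the replicates in both genotypes alike.

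At the upstream eTreg-specific site of Cd44 (chr2:102956894-102957294) the signal was 21.7 and 20.7 in the WT Foxp3 pair of libraries and 48.2 and 89.0 in the R397W Foxp3 pair, beside IgG values of 48.4 and 0 for WT and 49.6 and 0 for R397W. Both R397W Foxp3 libraries were above both WT Foxp3 libraries, and R397W Foxp3 replicate 1 equalled its IgG to within 3% (a ratio of 0.972). The other 3 sites inside Cd44 were weaker in WT Foxp3, with means of 8.49, 8.77 and 24.0. At chr2:102867574-102867974 the signal was 30.3 and 17.7 in the WT Foxp3 pair of libraries and 10.5 and 0 in the R397W Foxp3 pair, beside IgG values of 5.95 and 0 for WT and 15.8 and 81.5 for R397W. This was the single site of the 12 at which both WT Foxp3 libraries lay above both WT IgG libraries. At chr2:102848912-102849312 WT Foxp3 had 13.3 and 4.19 while both R397W Foxp3 libraries were at 0, and IgG replicate 1 had 19.2 in WT and 22.6 in R397W. At chr2:102852065-102852465 each group had reads in replicate 1 alone, namely 14 in WT Foxp3, 3 in R397W Foxp3, 11 in WT IgG and 2 in R397W IgG. Thus at Cd44 the genotypes did not overlap at 2 sites inside the gene, where R397W was lower (12.6% of all sites). They also did not overlap at the upstream site, where R397W was higher (6.43% of all sites), and they overlapped at the remaining 2. Both sites inside the gene rest on few reads. At chr2:102867574-102867974 R397W Foxp3 had 4 and 0 reads, beside 128 in R397W IgG replicate 2. At chr2:102848912-102849312 both R397W Foxp3 libraries had 0 reads. Even if reads were independent, a count of 0 would allow 3 reads. These correspond to a signal of 7.88 in R397W Foxp3 replicate 1, above the 4.19 of WT Foxp3 replicate 2.

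**Figure D3:**
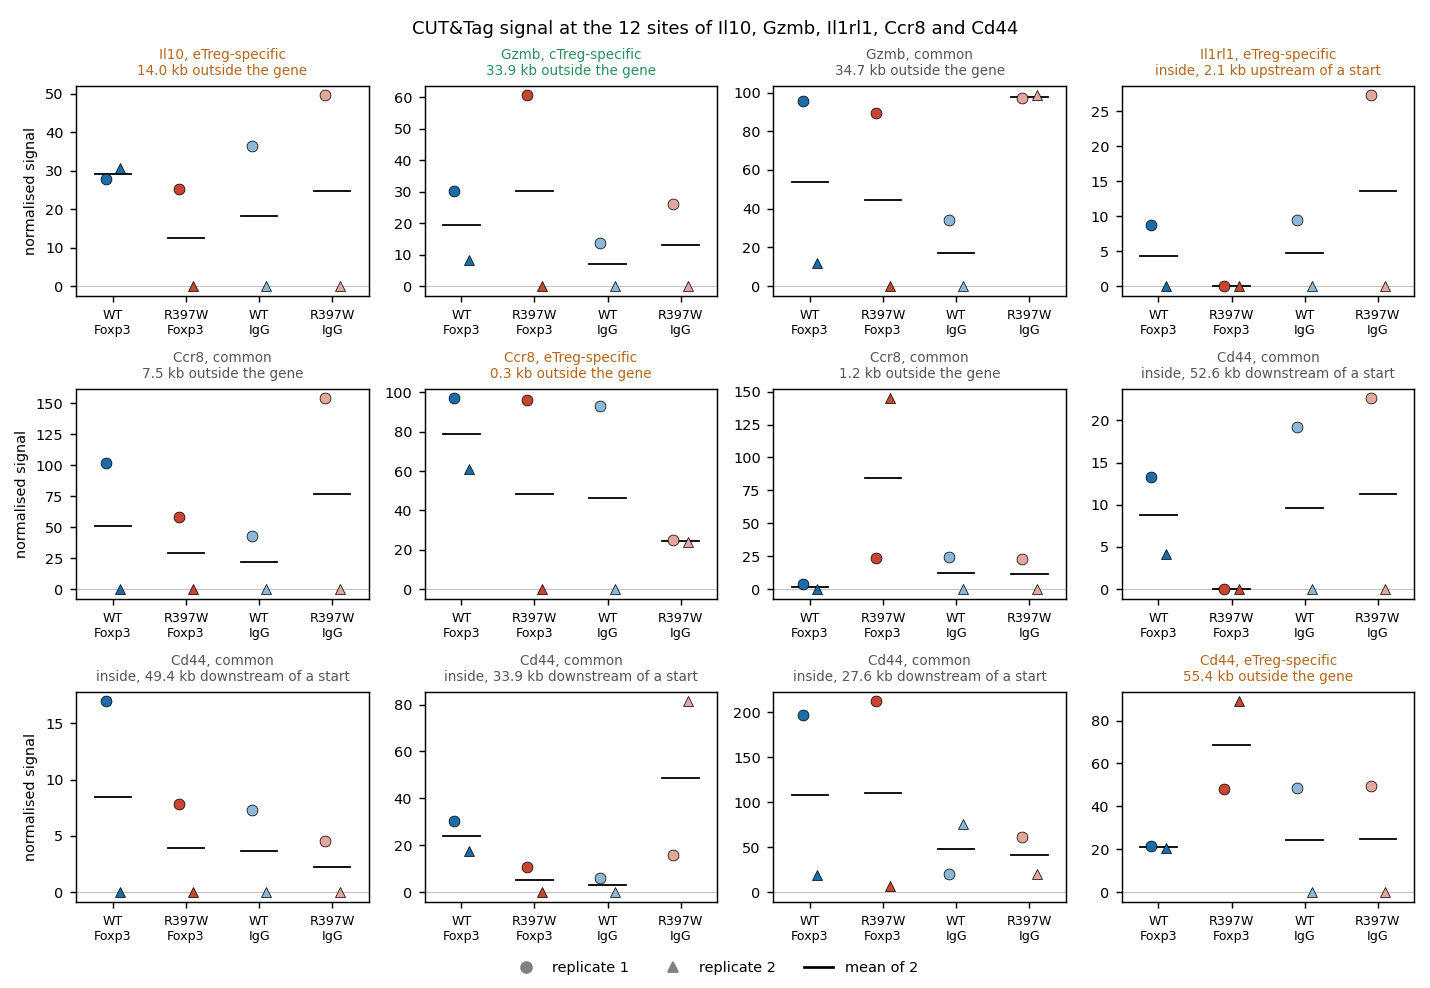
Normalised signal (y axis, linear, each panel to its own scale) at each of the 12 sites in the 4 groups, with replicate 1 as circles, replicate 2 as triangles and the mean of 2 as a line. Panel titles give the gene, the class and the position. Replicate 2 of R397W Foxp3 sits at 0 in 9 of the 12 panels and replicate 2 of WT IgG in 11.

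The genes without a site differed in how far the nearest listed site lay. For Fgl2 it was 6817 bp past the higher-coordinate end of the gene, an eTreg-specific site that the rule gave to Ccdc146 (chr5:21385003-21385403). Its signal was 26.0 and 0 in the WT Foxp3 pair of libraries and 6.28 and 0 in the R397W Foxp3 pair, beside IgG values of 13.8 and 0 for WT and 27.3 and 13.3 for R397W. The nearest site was 38519 bp from Ccr4, given to Glb1, and 49223 bp from Cxcr3, given to Ogt. For Areg and Ebi3 it was 852840 and 1319915 bp away. Within 100 kb of the 10 genes there were 36 pairings of a gene with a listed site, 24 of which the rule gave to other genes, 7 of them eTreg-specific. The 12 sites are those the rule assigns, not all listed sites within that distance.

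The promoter windows of Fgl2, Ccr4 and Gzmb, which no listed site overlapped, held the AP-1 motif TGANTCA. Of all 32851 windows 7.81% held this motif. The matches are shown because the Ccr8 window held none. Each stretch has 10 bases on either side and the motif in capitals (RefSeq, GRCm38.p6, read on the strand of the gene).
Fgl2, plus strand, chr5:21372647-21372673: tcagaacgccTGAGTCAggcggcggtg
Ccr4, minus strand, chr9:114496671-114496697: tttggggaaaTGAGTCActcagctttt
Gzmb, minus strand, chr14:56262376-56262402: ggtggttctcTGAGTCAttcgctgtgg
The matches began 16 bases before the start in Fgl2, 143 in Ccr4 and 58 in Gzmb. Of the other motifs, GTAAACA was in 1 of 2 Il1rl1 windows and TGTGGTT in the Gzmb and Cxcr3 windows. TTTGTTTG was in none of the 10 windows of these genes. Of all windows 3.65%, 5.27% and 2.61% held them, in that order. With 10 windows, the matches are not shown to be a trait of these genes. No match overlapped another.

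Foxp3 was compared with IgG to ask how far these sites stood above background. In WT, Foxp3 exceeded the IgG library of the same number at 7 of 12 sites in replicate 1 (72.7% of all sites) and at 7 of 12 in replicate 2 (41.9% of all sites), and at 4 sites in both (31% of all sites). These 4 were the Gzmb pair, the Ccr8 promoter site and the Cd44 site at chr2:102867574-102867974. WT IgG replicate 2 was at 0 at each of them, and at the Ccr8 promoter the ratio in replicate 1 was only 1.04. WT IgG replicate 2 had no read at 91.7% of the 12 sites, against 66.8% of all sites. Where it was empty, any Foxp3 read counted as above IgG, so the WT counts for replicate 2 and for both replicates say little. In R397W the counts were 5 and 2 of 12 (48.9% and 31.3% of all sites). There 1 site, the one past the end of Ccr8, was above IgG in both (16% of all sites). Its IgG replicate 2 was at 0, and its ratio in replicate 1 was 1.04. R397W Foxp3 replicate 2 had reads at only 3 of the 12 sites and R397W IgG replicate 2 at 4. The R397W counts for replicate 2 and for both replicates thus say little either, and they do not compare the genotypes. Both WT Foxp3 libraries lay above both WT IgG libraries at 1 of 12 sites, against 19.5% of all sites, and both R397W Foxp3 libraries above both R397W IgG libraries at 1 of 12, against 10.4%. In the opposite direction, both R397W Foxp3 libraries lay below both R397W IgG libraries at 2 of 12 sites, the common Gzmb site and the Cd44 site at chr2:102867574-102867974, against 7.84% of all sites. No site of the 12 had both WT Foxp3 libraries below both WT IgG libraries, against 4.84%.

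On log2(signal + 1), the median difference Foxp3 minus IgG over the 12 sites was 1.30 in WT and −0.59 in R397W, beside 1.27 and 0.05 over all sites. By limma over the 8 libraries, adjusted over all 5521 sites, none of the 12 passed in WT (lowest adjusted p = 0.991, with 0.0725% of all sites called) or in R397W (lowest adjusted p = 1, with 0% called). None of the 12 passed for the difference between genotypes in Foxp3 minus IgG either (lowest adjusted p = 0.9997, 0% of sites called). At unadjusted p under 0.05 limma gave 0 of the 12 in each of these 3 tests, where the shares of all sites were 2.57%, 1.47% and 1.65%, so a count of 0 among 12 says little. At the same threshold edgeR and DESeq2 on recovered reads gave 0 of the 12, and 0 after adjustment. The standard error at the Ccr8 promoter site was 2.72 on the log2 scale against an estimate of 3.01 in WT, and the 95% interval of that estimate ran from −2.33 to 8.34.

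Setting the Foxp3 libraries of R397W against those of WT asks whether the mutant form left a different signal at these genes. The fitted value was lower in R397W at 10 of 12 sites, against 60.4% of all sites, and the median log2 difference was −1.38, beside −0.39 over all sites. No site passed by limma on the 4 Foxp3 libraries (adjusted p = 1 at each of the 12, with 0% of all sites called), and limma gave 0 of the 12 at unadjusted p under 0.05, against 0.326% of all sites. By edgeR and by DESeq2 on recovered reads 0 of the 12 were called and 1 had an unadjusted p under 0.05, the site past the end of Ccr8, which was higher in R397W (unadjusted p = 0.0389 by edgeR and 0.0169 by DESeq2). The 2 R397W libraries lay below both WT libraries at 3 sites, namely Il10 and 2 inside Cd44, against 12.6% of all sites. They lay above both WT libraries at 2 sites, the one past the end of Ccr8 and the one upstream of Cd44, against 6.43%. The largest decrease among sites with a read in R397W was at the Ccr8 promoter, a log2 difference of −2.98 (SE 2.38, 95% interval −8.70 to 2.74), and the largest increase was past the end of Ccr8, 4.80 (SE 3.07, interval −2.59 to 12.2). At Il10 it was −2.56 (SE 3.07), at the strongest Cd44 site −0.60 (SE 1.88) and at the upstream Cd44 site 1.58 (SE 1.22). The 95% interval included 0 at each of the 12 sites.

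The sign and size of the median difference depended on which Foxp3 library was left out. Leaving out 1 library unbalances the replicate numbers between genotypes, so each value below includes the difference between the numbers. Without R397W Foxp3 replicate 2, which had no read at 9 of the 12 sites, the median log2 difference over the 12 was 1.11 and 4 sites were lower in R397W. Without WT Foxp3 replicate 1 it was −0.12 with 6 sites lower, without WT Foxp3 replicate 2 it was −2.90 and without R397W Foxp3 replicate 1 it was −3.23, with 10 sites lower in each. Without WT Foxp3 replicate 2 the difference was −3.27 at Il1rl1 and −3.84 at chr2:102848912-102849312 in Cd44. Both R397W Foxp3 libraries were at 0 at these 2 sites. With 1 WT library left and no spread in the R397W pair, calls from that fit cannot be interpreted. At the Ccr8 promoter the difference turned from −2.98 to 0.32 without R397W Foxp3 replicate 2. At Il10 it was −0.21 without that library, since R397W Foxp3 replicate 1 had 25.1 beside 27.7 and 30.7 in WT.

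**Figure D4:**
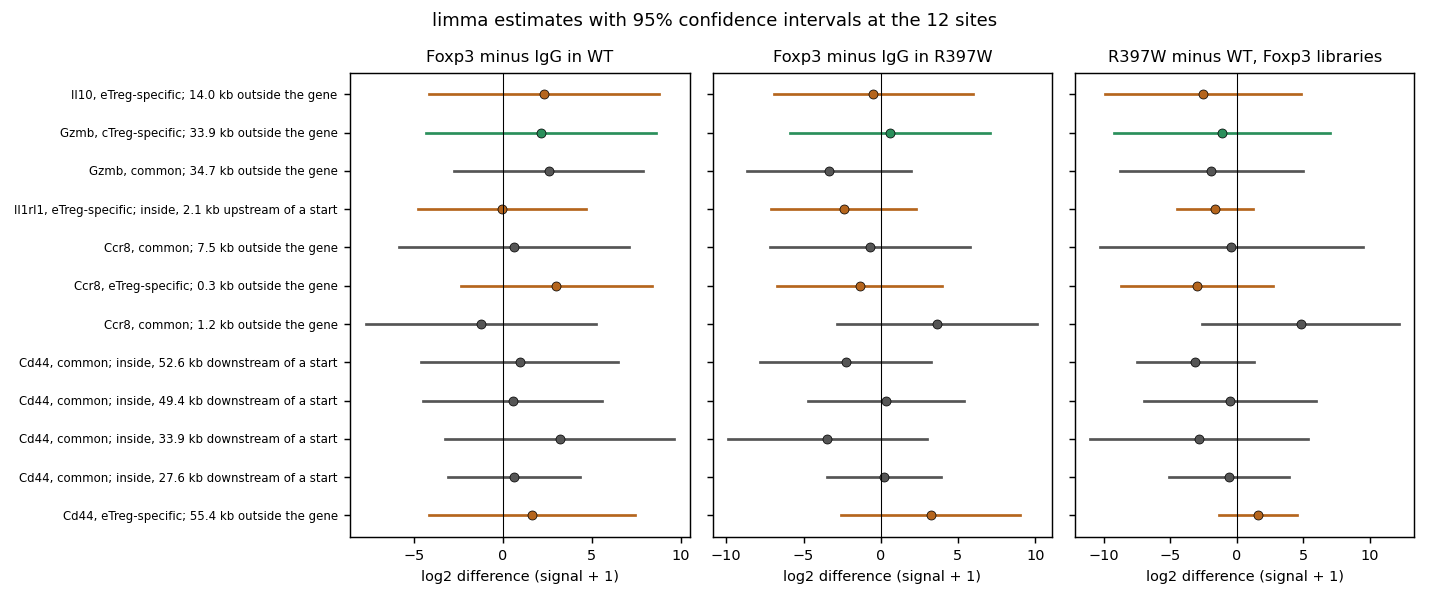
Estimates (points) and 95% confidence intervals (lines) by limma at the 12 sites, on the log2(signal + 1) scale, for Foxp3 minus IgG in WT, Foxp3 minus IgG in R397W and R397W minus WT in the Foxp3 libraries, coloured by class. Every interval crosses 0, and the site past the end of Ccr8 and the site upstream of Cd44 are those with a positive R397W minus WT estimate.

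The share of reads falling at the 12 sites holds no library factor and was set beside the signal for that reason. It was 0.212% of reads at all listed sites in WT Foxp3 replicate 1 (95% Wilson interval 0.196 to 0.230) and 0.107% in replicate 2 (0.0976 to 0.118). In R397W Foxp3 it was 0.243% (0.215 to 0.273) and 0.124% (0.112 to 0.138). With IgG the share was 0.184% and 0.0524% for WT, and for R397W it was 0.216% and 0.131%. The libraries numbered 1 thus had the higher share in all 4 groups, and in the Foxp3 libraries the difference between numbers exceeded that between genotypes. On the log2 scale R397W minus WT was 0.20 in Foxp3 libraries (pooled SD between replicates 0.69) and 0.78 in IgG libraries (pooled SD 0.97). These SDs include the difference between the libraries numbered 1 and 2. Within a replicate number the difference was 0.19 and 0.21 with Foxp3 and 0.23 and 1.33 with IgG, so R397W was higher in both numbers with either antibody. The Wilson intervals of the genotypes overlapped in both Foxp3 numbers. The intervals cover counting error only, since reads amplified by PCR are not independent molecules.

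The pathway partners of these genes formed a list of 38, of which 18 had 57 sites. Of all protein-coding genes 12.6% had a site. Among chemokine receptors, 8 of 15 further genes had a site, with 13 common, 2 cTreg-specific and 4 eTreg-specific. Of the adhesion genes 5 of 7 had one. The receptor chain gene Il10ra had 2 sites and Il10rb none, the IL-33 receptor partners Il1rap and Myd88 had none, and neither did Egfr or Fcgr2b, which encode receptors for amphiregulin and Fgl2. Among the cytokine partners of Ebi3, Il12a had 2 sites and the receptor gene Il6st had 9. No partner site passed by limma between R397W and WT, and 0 had an unadjusted p under 0.05, against 0.326% of all sites. The fitted value was lower in R397W at 59.6% of the 57, against 60.4% of all sites. These counts do not set the partners apart from the other sites. The highest mean WT Foxp3 signal of the partners was at a common site inside Cx3cr1 (chr9:120054738-120055138), the neighbour of Ccr8, with 191.6 and 314 in the WT Foxp3 pair of libraries and 157.5 and 106.9 in the R397W Foxp3 pair, beside IgG values of 223 and 279 for WT and 106.4 and 73.2 for R397W. Next came Cxcr4, with 245 ± 218 in WT and 109.9 ± 45.1 in R397W Foxp3, and Selplg, Ccr9, Itgal and Ccr7, with WT means of 233, 195, 167 and 163 (SD, n = 2). The WT IgG means at these 5 sites were 82.7, 203, 40.6, 45.3 and 94.2, in the order Cxcr4, Selplg, Ccr9, Itgal and Ccr7. The highest WT Foxp3 mean among the common sites at the effector genes was 107.8 at Cd44. The 6 partners were picked as the highest by this same mean from 57 sites, so their place above 107.8 allows no conclusion.

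The site list was also looked up at marker genes. It is 1 list for all 8 libraries, so the lookup describes the list and does not check the sort. Of 8 Treg marker genes 7 had sites (Foxp3, Il2ra, Ctla4, Ikzf2, Ikzf4, Nrp1 and Lrrc32, but not Tnfrsf18). No site was given to any of the 3 B cell, 3 myeloid or 3 CD8 T and NK cell markers. Of all protein-coding genes 12.6% had a site, so the lack of a site at these few markers says little. Of 4 conventional T cell cytokine genes 2, Ifng and Il2, had sites. Binding sites do not show which genes these cells expressed.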

How the data were processed

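CUT&Tag with anti-Foxp3 or IgG was available for 8 libraries, 2 per group. The deposited tables hold normalised signal per site and library, in 3 class files scaled separately. Per the submitters' processing notes, the tools included DiffBind 3.12.0 and Bowtie2 2.5.2 and the builds dm6 and mm10. No source used here says how the sites were chosen and classed. Within a file and library, 100% of 28067 signals above 0 were whole multiples of the smallest step (tolerance 0.01), and the deposited signal divided by that step gave reads. Summed reads at listed sites were 111274 to 394196 per library, and the number of reads limits precision. A share carries a 95% Wilson interval.

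The signal was tested as log2(signal + 1) with limma 3.58.1 (trended) in R 4.3.3, R397W against WT on the 4 Foxp3 libraries and the IgG comparisons on all 8, with p-values adjusted by Benjamini-Hochberg across the 5521 sites (threshold 0.05). Alternatives were edgeR 4.0.16 (quasi-likelihood) and DESeq2 1.42.0 on recovered reads, other pseudocounts, scaling and filters, a 10 kb gene limit, each replicate left out, and the replicate number as a block. Genes came from RefSeq GRCm38.p6, within 5 kb or else 100 kb. Scripts were tested on simulated data. All sites of the 10 genes are reported; partner genes are named by the 6 highest mean WT Foxp3 signals and by list counts, and other partner genes named were chosen after their values were seen. The members and lists were chosen with earlier results of these data known. The titles reuse a numbered cell name across antibodies without saying that the cells were shared, so numbers were not treated as pairs in the main fits. Site by site, same-numbered libraries deviated together only weakly, but a correlation across sites cannot see a shift common to all sites. A difference between the numbers was present, since libraries numbered 2 had reads at fewer sites in every group. The main fits leave it in the spread, and the block is the alternative that fits it.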

Additional observations from a re-analysis of the deposited data

How the results depend on the processing

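The number of the 12 sites called by limma was 0 in each of the 4 comparisons and stayed 0 in 63 of 64 alternatives; with single Foxp3 or IgG libraries left out it ranged from 0 to 2. In those fits the lone library of a group is assumed to vary like the other groups. The exception, without WT Foxp3 replicate 2, was at 2 sites where both R397W Foxp3 libraries were at 0. The R397W pair had no spread there, so these calls cannot be interpreted. With the replicate block, limma called 0 of the 12 in each comparison (lowest adjusted p = 0.815 for R397W against WT, 0.697 for Foxp3 against IgG in WT, 0.853 in R397W and 0.845 for the genotype difference). The deviations of same-numbered libraries correlated at 0.0375 to 0.167 across sites, a measure that cannot see a shift common to all sites. The log2 difference in read share, 0.20, ranged from −0.29 to 0.70 with single libraries left out and from 0.18 to 0.23 under the other alternatives. Leaving out 1 library unbalances the replicate numbers between genotypes, so the wider range includes the difference between numbers. Of 84 alternative values at single sites 10 changed sign, 6 of them without R397W Foxp3 replicate 2 and 4 without WT Foxp3 replicate 1. The 10 kb limit keeps 8 of the 12 sites and drops those of Il10 and Gzmb and the upstream site of Cd44. Reads limit the weakest sites, since the Il1rl1 site had 36 in 8 libraries.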
